A study of Caenorhabditis elegans with 2 samples.

Results

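Of the 968 regions bound by tagged MXL-2 in whole Caenorhabditis elegans larvae, 394 (40.7%) lay between protein-coding genes and away from noncoding RNA genes, and these are described here. A region was kept when its summit lay in no protein-coding gene of the Ensembl annotation and no part of it overlapped a tRNA, rRNA, snoRNA, snRNA, miRNA, ncRNA, lincRNA or antisense RNA gene. Of the other regions, 414 had their summit in a protein-coding gene and 160 lay between coding genes at a noncoding RNA gene. Chromatin was immunoprecipitated with an antibody against GFP from L4 larvae of strain RW12316, aged 48 h after release from starved L1 arrest, which carry mxl-2::TY1::EGFP::3xFLAG at the gene's own locus on chromosome III. In the labels the antibody is entered as mxl-2. There were 2 biological replicates of 1 group. The samples are whole animals, so binding in all cell types is pooled, and a control library was not analysed here. Of the 394 regions, 4 overlapped a pseudogene and 1 a piRNA gene, which the rule allows. Signal below means the authors' enrichment value of a peak, which has no unit and is comparable only within 1 list. The number of reads behind a region is unknown, so intervals cover counting error over regions only. Regions share 1 pair of chromatin preparations and some share a gap between genes, so they are not independent replicates, and p-values over regions describe these lists.

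MXL-2 is the worm's Mlx-like transcription factor, a basic helix-loop-helix protein with a leucine zipper. It pairs with the Mondo-like protein MML-1, and the pair binds DNA at E-boxes, whose palindromic form is CACGTG. The network is known for roles in metabolism, growth and lifespan, with MDL-1 (Mad-like), MXL-1 and MXL-3 (both Max-like) as further members. In mammals, Mlx and its Mondo partner ChREBP bind carbohydrate response elements, which join a pair of E-box-like hexamers at a set spacing. Worm genes are packed closely, many intergenic stretches hold promoters that face apart, and an annotated 5' end is often a trans-splice site rather than the start of transcription.

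The windows below show strong regions with and without the palindromic E-box. Each runs from 50 bases before to 50 bases after the deposited summit on the plus strand of the RefSeq genome (WBcel235, the same assembly as ce11), with CACGTG in capitals in the first 4. They lie at X:6742189-6742289, X:13353619-13353719, X:13358724-13358824, IV:3654359-3654459 and III:3867530-3867630 in this order. These regions lay 112 bp upstream of the mdl-1 5' end, 2865 bp upstream of mxl-3, 3812 bp downstream of the C49F8.15 5' end and past its 3' end, 5725 bp upstream of CC8.2 and 274 bp upstream of rpl-3. The last window has neither CACGTG nor CACATG and is the summit of the strongest region next to a ribosomal protein gene.
mdl-1: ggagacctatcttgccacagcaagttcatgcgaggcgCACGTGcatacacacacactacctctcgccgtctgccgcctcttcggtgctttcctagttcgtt
mxl-3: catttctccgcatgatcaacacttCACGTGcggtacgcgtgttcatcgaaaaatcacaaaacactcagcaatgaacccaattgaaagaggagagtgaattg
C49F8.15: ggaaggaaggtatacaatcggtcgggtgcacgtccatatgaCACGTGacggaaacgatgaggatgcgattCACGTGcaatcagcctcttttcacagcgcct
CC8.2: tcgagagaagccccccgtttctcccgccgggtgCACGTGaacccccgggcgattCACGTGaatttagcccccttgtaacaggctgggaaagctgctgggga
rpl-3: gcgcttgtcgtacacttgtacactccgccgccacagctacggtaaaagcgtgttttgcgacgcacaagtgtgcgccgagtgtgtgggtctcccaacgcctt

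A second set shows pairs of hexamers, CACGTG or CACATG on either strand (CATGTG on the other), that lay at summits with exactly 5 bases between them. The capitals mark 2 hexamers, with 6 bases to either side, on the plus strand of the same genome. In the CC8.2 stretch each marked hexamer lies in CACATGTG and so overlaps another hexamer. That site therefore also holds pairs of other spacings. Their positions are III:6897768-6897796, V:12637378-12637406, IV:11962193-11962221, V:20871358-20871386, IV:1454357-1454385, X:7446633-7446661, IV:7047794-7047822 and IV:3652360-3652388.
T07E3.4: tctgtcCATGTGaattgCACATGaagtgg
F56H9.2: actgttCACGTGcaccaCACATGtctatc
ZK829.7: tcaataCATGTGcttttCACGTGcacaca
F31D4.8: tggtttCACATGatttaCACATGagatac
nadk-1: gtcagcCACGTGtcattCACGTGtatttt
acl-12: gaacagCACGTGaacttCACGTGaacttc
nhr-105: gaatctCACATGtttgtCACGTGgactgt
CC8.2: ggtacaCATGTGgatctCACATGtgaaaa

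Pairs with 5 bases between them lay at a summit more often than pairs of all other spacings pooled. In intergenic sequence away from noncoding RNA genes there were 30 pairs with 5 bases between the hexamers, and 14 of them (46.7%, 95% interval 28.3 to 65.7) lay wholly within 50 bp of a region's summit. Of the 307 pairs with any other spacing up to 20 bases, 25 (8.14%) did so, and the odds ratio was 9.87 (exact p by Fisher's two-sided test = 6.37e-06, adjusted over 21 spacings). Among the 21 spacings this was the only one called, which is 4.76% of them, and 0 (0%) were called lower. The next highest shares were 3 of 10 pairs at 19 bases and 4 of 15 at 17 bases. Then came 4 of 16 at 7 bases and 3 of 14 at 6 bases. Their intervals all overlap that of 5 bases. The strong regions at R07E3.4 (signal 444) and H18N23.2 (414) hold pairs of CACGTG with 6 bases between. Pairs can share a hexamer or a summit, and the pairs at summits, of all spacings, lay in 26 regions, so the spacings are not independent. The summit at F31D4.8, for example, also holds a pair with 19 bases between. The difference was examined after pairs of this spacing had been seen in the windows of the strongest regions, so it is not an independent test. It held in every alternative run, with adjusted exact p-values up to 4.47e-05.

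**Figure D1:**
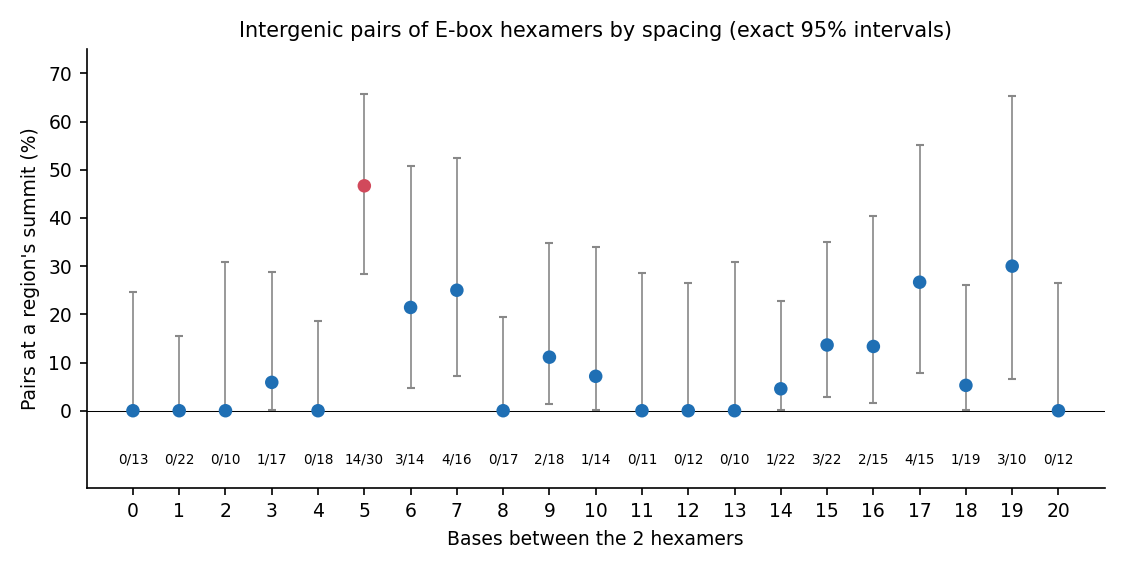
Share of all intergenic hexamer pairs that lie within 50 bp of a region's summit, by the number of bases between the 2 hexamers, with exact 95% intervals and the counts under each point. The point at 5 bases, 14 of 30 pairs, has the highest share, with an interval that overlaps those of several other spacings.

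The 14 pairs lay in 13 regions, and the composition of the pair varied. With 5 bases between them, 4 of 7 pairs of CACGTG with CACGTG lay at a summit, as did 5 of 9 pairs of CACGTG with CACATG and 5 of 14 pairs of CACATG with CACATG. At other spacings the corresponding shares were 13.7% (7 of 51), 4.95% (5 pairs) and 8.39% (13 of 155). All 13 regions were found in each replicate's list and lay above the median signal of the whole list, which was 82.1, and their own median was 361. Pairs of this spacing were first seen in the strongest regions, so their high signal and presence in both lists are not independent evidence. None of the 788 flanking windows, taken 500 bp to either side of the summits, held such a pair. Of the 13, 5 lay within 1000 bp of a 5' end and 8 farther away, and 1 was on X.

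Several of the strongest intergenic regions carried this pair, some of them without the palindrome within 50 bp of the summit. The region 3975 bp upstream of F26A3.4 (I:7662103-7662425) had a signal of 1184, with 601 in replicate 1 and 573 in replicate 2. The region 218 bp upstream of T07E3.4 (III:6897658-6897937) had 1079, with 487 and 585 in the replicates. Within 50 bp of the summit both hold CACATG pairs and no CACGTG, as does the region 2949 bp upstream of F31D4.8 (V:20871281-20871469, signal 404, replicates 222 and 189). Pairs that include CACGTG lay 269 bp upstream of F56H9.2 (V:12637225-12637571, signal 1069, replicates 582 and 477) and 665 bp upstream of ZK829.7 (IV:11962035-11962335, signal 990.0, replicates 539 and 469). All 5 were in both replicates' lists. Others lay near pyk-1, a pyruvate kinase gene (signal 478), nadk-1, an NAD kinase gene (361), acl-12, an acyltransferase gene (351), cdk-7, a cyclin-dependent kinase gene (311), and nhr-105, a nuclear hormone receptor gene (262). The remaining 3 had CC8.2 (159), tmem-189 (117) and F26A3.4 again (101.2) as nearest genes.

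Summits no more than 1000 bp from the 5' end of a coding gene, called proximal here, and more distant ones were equally frequent. There were 197 proximal and 197 distal regions, so proximal ones made up 50% of the total, while 34.6% of the 36.5 Mb of eligible intergenic sequence lies that close to a 5' end. In the replicates' own lists the proximal share was 50.4% ± 2.02 (SD, n = 2). The density was 15.6 regions per Mb of proximal and 8.24 per Mb of distal sequence. It was highest within 200 bp of a 5' end, at 24.3 per Mb, and was 15.6 from 200 to 500 bp, 9.96 from 500 to 1000 bp, 7.90 from 1000 to 2000 bp, 9.64 from 2000 to 5000 bp and 5.84 beyond. The GC content of the summit windows moved with distance, from a median of 51.0% within 200 bp to 45.5% at 2000 to 5000 bp. It was 47.5% beyond 5000 bp, and the part of GC content in the density was not tested.

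**Figure D2:**
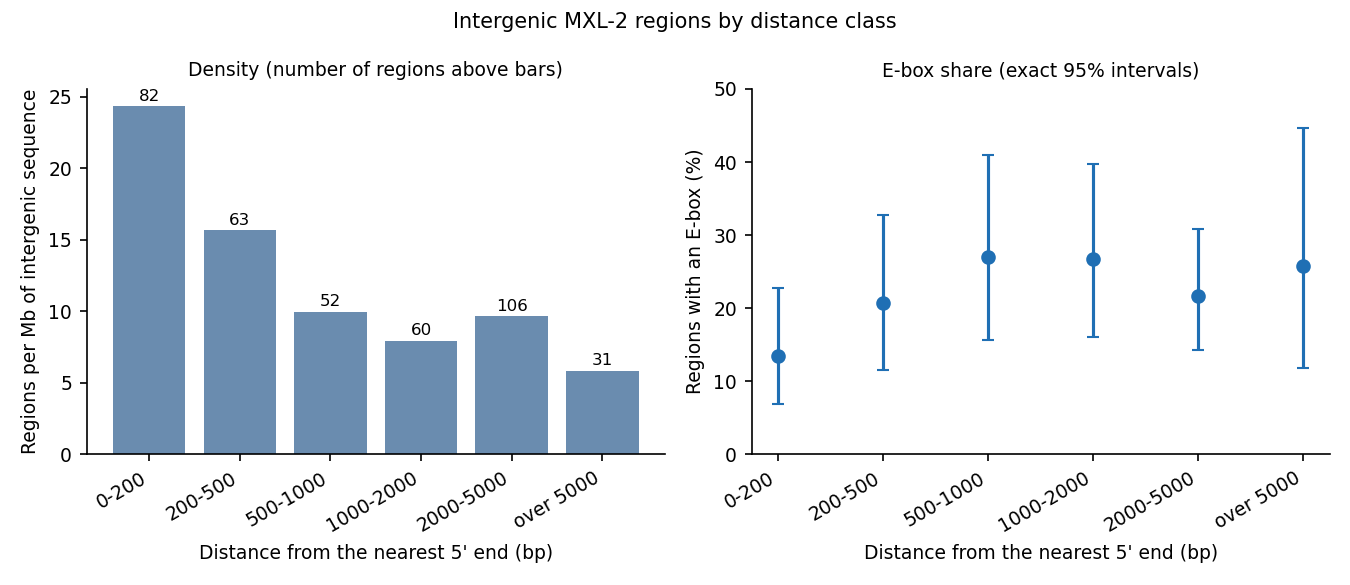
Left, regions per Mb of eligible intergenic sequence in 6 classes of distance from the nearest 5' end, with the number of regions above each bar. Right, the share of regions with CACGTG within 50 bp of the summit and its exact 95% interval, lowest at 13.4% in the class nearest to 5' ends, with intervals that overlap across classes.

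The strongest proximal region lay 112 bp upstream of mdl-1, the Mad-like gene of the network (X:6742019-6742487, signal 1615), with 817 in replicate 1 and 785 in replicate 2. A second one lay 589 bp upstream of the same gene (X:6741652-6741924, signal 321, replicates 157 and 185) and had CACATG in place of CACGTG. Besides T07E3.4, F56H9.2 and ZK829.7, the 10 strongest included a region 285 bp upstream of imb-3, an importin beta gene (I:315153-315396, signal 878, replicates 474 and 398). F21C10.10 at 464 bp (signal 493), R07E3.4 at 206 bp (444), H18N23.2 at 137 bp (414) and mans-3 at 175 bp (342) followed, all 4 with CACGTG. The tenth, 274 bp upstream of rpl-3, a ribosomal protein gene, had none (III:3867502-3867658, signal 334, replicates 153 and 179). Each of the 10 was found by both replicates, and CACGTG was present in 8.

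Among distal regions the highest signal was 1184, at F26A3.4, against 1615 among proximal ones. Next came a region 2865 bp upstream of mxl-3, a Max-like gene of the network (X:13353544-13353806, signal 750.3), with 355 in replicate 1 and 393 in replicate 2. The next, in the same gap between genes, was nearest to C49F8.15 (X:13358630-13358922, signal 579, replicates 278 and 289). Then followed CC8.2 at 5725 bp (IV:3654262-3654520, signal 558, replicates 269 and 285), pyk-1 at 1338 bp (478), R03E9.2 at 4472 bp (442), penr-1 (405), F31D4.8 (404), ZK1290.5 at 1201 bp (382) and nadk-1 at 2670 bp (361). All 10 were in both lists, and 7 had CACGTG, the exceptions being F26A3.4, F31D4.8 and ZK1290.5. The gene with the nearest 5' end is named as a landmark, since the files do not measure which gene a region acts on.

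Signal, reproducibility and the E-box did not separate the proximal from the distal group. The signal was above the whole list's median in 111 of 197 proximal (56.3%, 95% interval 49.1 to 63.4) and 105 of 197 distal regions (53.3%, 46.1 to 60.4), an odds ratio of 1.13 (interval 0.746 to 1.72). Median signals were 86.5 and 84.2. Found in both replicates' lists were 69 proximal (35.0%) and 64 distal regions (32.5%), an odds ratio of 1.12 (0.722 to 1.74). CACGTG lay within 50 bp of 38 proximal (19.3%) and 47 distal summits (23.9%), an odds ratio of 0.763 (0.456 to 1.27). In each comparison the two-sided Fisher's exact p, adjusted over the 9 planned comparisons, was 0.670, and the intervals include differences in either direction. In the list of replicate 2 alone the order of the signal shares turned, with 53.5% of proximal and 58.5% of distal regions above that list's median.

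**Figure D3:**
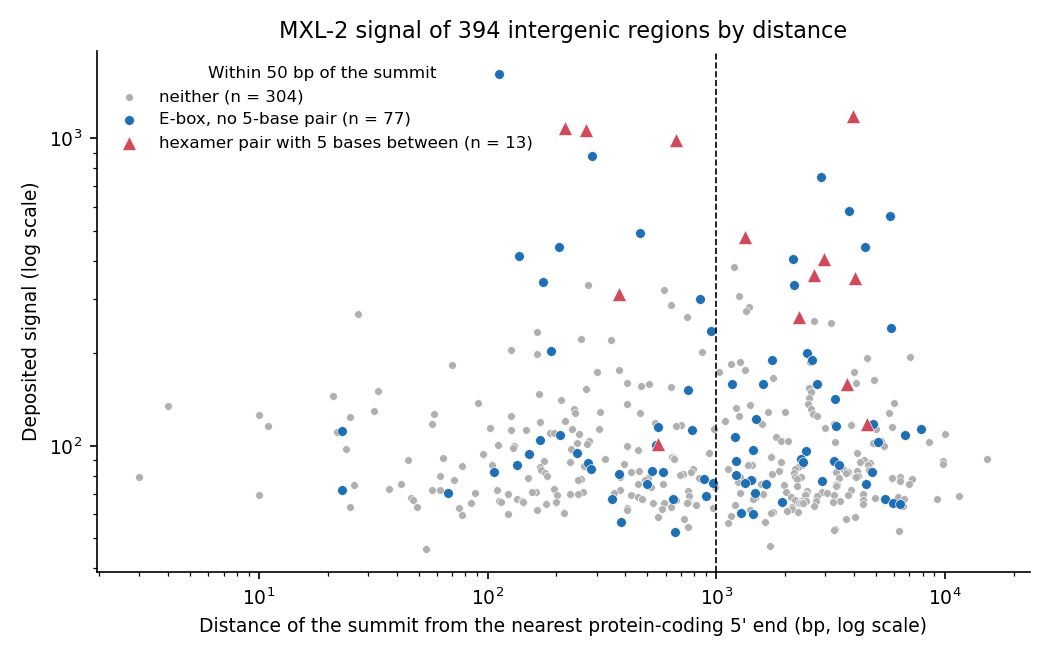
Deposited signal of each of the 394 regions against the distance of its summit from the nearest 5' end, both on log scales, with the 1000 bp limit dashed. Regions above a signal of 300 occur on both sides of the limit, and most of them have an E-box or a hexamer pair with 5 bases between.

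The limit of 1000 bp cuts through a continuous range. Just inside it lay regions 985 bp from pde-3, a phosphodiesterase gene (signal 73.8), 974 bp from fbxb-58, an F-box gene (114), and 972 bp from F26A3.4 (75.9). Just outside lay regions 1023 bp from mstr-1 (174), 1094 bp from T27A8.7 (120.1) and 1120 bp from T26H5.8 (84.2).

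Divergent promoters, where 5' ends face the summit from both sides within 1000 bp, held 50 of the 197 proximal regions, and 147 lay at single promoters. Single promoters included regions in divergent gaps whose other 5' end lay farther than 1000 bp, such as those at mdl-1, F56H9.2 and cdk-7. By the neighbouring genes at any distance, 106 of the 197 lay in divergent gaps. Divergent positions were the denser ones, with 39.2 regions per Mb against 13.0 at single positions, over 1.27 and 11.3 Mb of sequence. Their median gap between genes was 600.5 bp against 2007 bp, so divergent summits also lay nearer to a 5' end, at a median of 155.5 bp against 309 bp. The strongest divergent region lay 27 bp upstream of tasp-1, a taspase gene, and 758 bp from K01G5.10 (III:10759203-10759302, signal 268, replicates 120 and 144). Next came the 350 bp between F44E5.4 and F44E5.5, a pair of Hsp70 family genes (II:11759345-11759604, signal 235.3, replicates 103 and 133). Next came one between rpl-15 and K11H12.8 (signal 221, replicates 119 and 99.1), another between rpl-20 and Y17G9B.5 (205, replicates 85.6 and 119), and then one 70 bp from iff-2, which encodes a homologue of translation factor eIF5A (184, replicates 88.1 and 86.9). All 5 were in both replicates' lists.

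None of these 5 had CACGTG, nor did the 10 regions of highest signal at divergent promoters. The strongest divergent regions with it, named after their values were seen, lay between mif-4 and ipla-6 (signal 112, replicates 58.1 and 54.3) and between H12C20.7 and nhr-68 (112, replicates 51.8 and 62.4). Its share was 8 of 50 divergent (16%, 95% interval 7.17 to 29.1) and 30 of 147 single promoters (20.4%, 14.2 to 27.8), an odds ratio of 0.743 (0.273 to 1.83, exact adjusted p = 0.670). In the list of replicate 1, with replicate 2 left out, the difference did pass, with 1 of 25 against 20 of 67 (exact adjusted p = 0.0180), while in that of replicate 2 it was 3 of 29 against 19 of 72 (exact adjusted p = 0.192). The share above the median signal was 60% at divergent and 55.1% at single promoters, an odds ratio of 1.22 (0.608 to 2.49), and turned in each replicate's own list, by −7.28 and −5.19 percentage points. Both replicates' lists held 20 of 50 divergent (40%) and 49 of 147 single ones (33.3%), an odds ratio of 1.33 (0.647 to 2.71). The adjusted exact p was 0.670 for each of these comparisons.

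The E-box itself was concentrated at the summits. CACGTG lay within 50 bp of 85 of 394 summits (21.6%, 95% interval 17.6 to 26.0) and in 17 of 788 flanking windows (2.16%), an odds ratio of 12.5 (7.19 to 22.7, exact adjusted p = 1.11e-26). The flanking windows could fall in coding genes, unlike the summits, and the part this had in the difference was not tested. Taken from each replicate's own list, the share with CACGTG came to 25.8% ± 0.440 (SD, n = 2). Regions between coding genes but at noncoding RNA genes had it in 5 of 160 cases (3.13%), an odds ratio of 8.53 for the regions described here (3.40 to 27.4, exact adjusted p = 1.85e-08). Intronic regions away from noncoding RNA genes had it in 48 of 169 cases (28.4%), a difference that did not pass (odds ratio 0.693, 0.451 to 1.07, exact adjusted p = 0.253). That comparison passed in the list of replicate 1 (25.5% against 48.75% in introns, exact adjusted p = 0.00077), but not in that of replicate 2 (26.2% against 39.7%, exact adjusted p = 0.0686). It also passed among regions of the whole list with a signal above the median of the regions described here (28.4% against 50%, exact adjusted p = 0.00569) and within 100 bp of the summit (27.9% against 39.1%, exact adjusted p = 0.03005).

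Where present, the site lay near the summit. Of the 96 intergenic CACGTG sites within 50 bp of a summit, 53 were within 20 bp, with a median distance of 15.5 bp, and 11 regions had more than 1 site. In 4 classes of equal size, from the highest to the lowest signal, CACGTG was found in 31.3%, 25.3%, 18.4% and 11.2% of regions. It lay in 60 of 216 regions above the median of the whole list and 25 of 178 others (27.8% against 14.04%, odds ratio 2.35, exact adjusted p = 0.00743), and 41 of 85 regions with it were in both replicates' lists against 92 of 309 without (48.2% against 29.8%, odds ratio 2.20, exact adjusted p = 0.00743). These 2 are among 12 comparisons chosen after seeing the data and adjusted together. In the replicates' own lists the first kept its direction without passing (30.3% against 20.9% in replicate 2 and 30.3% against 19.0% in replicate 1, exact adjusted p = 0.243 and 0.137). With the analysis limited to the stronger 50%, the second was no longer past the threshold (exact adjusted p = 0.297).

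Most intergenic E-boxes did not lie within 50 bp of a summit described here. Of 5645 CACGTG sites in eligible intergenic sequence, 96 (1.70%, 95% interval 1.38 to 2.07) lay at a summit. The share was 1.82% for sites within 1000 bp of a 5' end and 1.62% for more distant ones (odds ratio 1.13, exact adjusted p = 0.596), and 1.95% on X against 1.65% on the other chromosomes (odds ratio 1.19, exact adjusted p = 0.596). The share of sites at a summit differed with the bases beside the hexamer, in a comparison of 10 flank classes added after seeing the data. Sites reading GCACGTGA, on either strand, lay at a summit in 20 of 413 cases (4.84%) and sites reading TCACGTGA in 24 of 558 (4.30%), both with an exact adjusted p of 7.25e-05. These are the 2 classes called higher (20%). Sites reading ACACGTGT did so in 1 of 445 cases (0.225%, exact adjusted p = 0.0213), the 1 class called lower (10%), a call lost in replicate 1's own list (exact adjusted p = 0.334) and under 4 other alternatives. The class GCACGTGC, which includes the mdl-1 site, had 5 of 117 (4.27%, exact adjusted p = 0.0967).

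Other words were also more frequent at summits than beside them. Of 2080 distinct hexamers, 305 (14.7%) were higher and 219 (10.5%) lower in summit windows than in flanking windows (two-sided Fisher's exact test, adjusted p under 0.05). These windows were not matched on base composition, and the flanking ones could fall in coding genes. Of the 305, 176 contained CG, against 29.0% of all hexamers, while all 36 hexamers made of A and T only were lower. ACGCAG lay in 61 of 394 summit windows (15.5%) and 11 of 788 flanks (1.40%), and CACATG in 56 (14.2%) and 26 (3.30%). None of CACGTG or CACATG or ACGCAG was present in 220 regions (55.8%). ACGCAG was found in 39 proximal (19.8%) and 22 distal windows (11.2%, odds ratio 1.96, exact adjusted p = 0.0505), and it passed with every deposited line kept, with 1 region per gap and within 100 bp (exact adjusted p from 0.0145 to 0.0439). Between proximal and distal summits 1 hexamer was called higher (0.0481%) and 0 (0%) lower, with 152 at an unadjusted exact p under 0.05. It was AGAGGA, in 26 of 197 proximal and 3 of 197 distal windows (exact adjusted p = 0.0158), and it was not called in either replicate's own list. Between divergent and single promoters 0 (0%) were called higher and 0 (0%) lower by the same test, with 63 at an unadjusted exact p under 0.05.

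Regions in convergent gaps rarely had the E-box. Gaps bounded by 5' ends on both sides held 151 of the regions, tandem gaps with one 5' end 204, and convergent gaps, between 3' ends, 39. Of all gaps of each kind, 3.23%, 1.76% and 1.25% held a region, and the density was 12.1, 10.3 and 9.49 regions per Mb. CACGTG lay in 1 of 39 regions of convergent gaps (2.56%, 95% interval 0.0649 to 13.5) and 84 of 355 others (23.7%), an odds ratio of 0.0849 (0.00207 to 0.521, exact adjusted p = 0.00743, a comparison added once the data had been seen). The exception lay between F26A3.5 and del-3 (I:7670000-7670259, signal 88.7, replicates 45.3 and 41.5), with the site 47.5 bp from the summit. In the replicates' own lists 0 of 14 and 0 of 12 convergent regions had it, against 28.2% and 27.3% of the others (exact adjusted p = 0.0684 and 0.0697). The call was also lost in the 50% of higher signal, with 1 of 13 against 55 of 184 (exact adjusted p = 0.207). Between divergent and tandem gaps the shares were 19.9% and 26.5%, a difference that did not pass (exact adjusted p = 0.221). Chromosome X held 16 of the 39 convergent regions (41.0%), against 15.2% of those in divergent and 26.5% in tandem gaps. Regions on X had CACGTG in 16.1% of cases, against 21.6% of all 394 regions. The part of X in the convergent contrast was not tested. The strongest convergent regions, near W02H3.3 (signal 174, replicates 66.5 and 100.4), F22H10.2 (143) and F19H6.5 (129), were all on X and in both lists, and were named after their values were seen. Of convergent regions 17.9% were in both lists and 41.0% above the median signal, against 35.5% and 56.3% of the others (exact adjusted p = 0.0544 and 0.134). The first passed with every deposited line kept (exact adjusted p = 0.0439). The second comparison passed in the list of replicate 2, with a difference of −44.8 percentage points (exact adjusted p = 0.0128), and not in that of replicate 1 (exact adjusted p = 0.365).

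A few gaps held several regions. Regions occurred in 349 of 17079 gaps, and 316 of these held a single one, 27 held 2 and 6 held 3 or more. The gap between mxl-3 and C49F8.15 (X:13350805-13361200) held 6 regions over 7154 bp, with signals of 750.3, 90.3, 115.4, 579, 201 and 60.9 from left to right. Those at 750.3, 579 and 201 had CACGTG and were in both lists. Upstream of mdl-1, in the gap shared with R03E9.2 (X:6733302-6742350), 4 regions had signals of 118, 442, 321 and 1615, all in both lists, and those at 442 and 1615 had CACGTG. In the gap between F26A3.4 and F26A3.5 the signals were 101.2, 75.9, 1184 and 87.7, and in that between CC8.2 and fmil-1 they were 87.1, 159, 118 and 558. Between ztf-27 and T09F3.2 they were 189.9, 104 and 83.0, and between F22B7.9 and dpy-19, a C-mannosyltransferase gene, 75.01, 143 and 193. In the gap at mxl-3 2 regions exceeded 500, and in the gaps at mdl-1, F26A3.4 and CC8.2 1 region did.

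**Figure D4:**
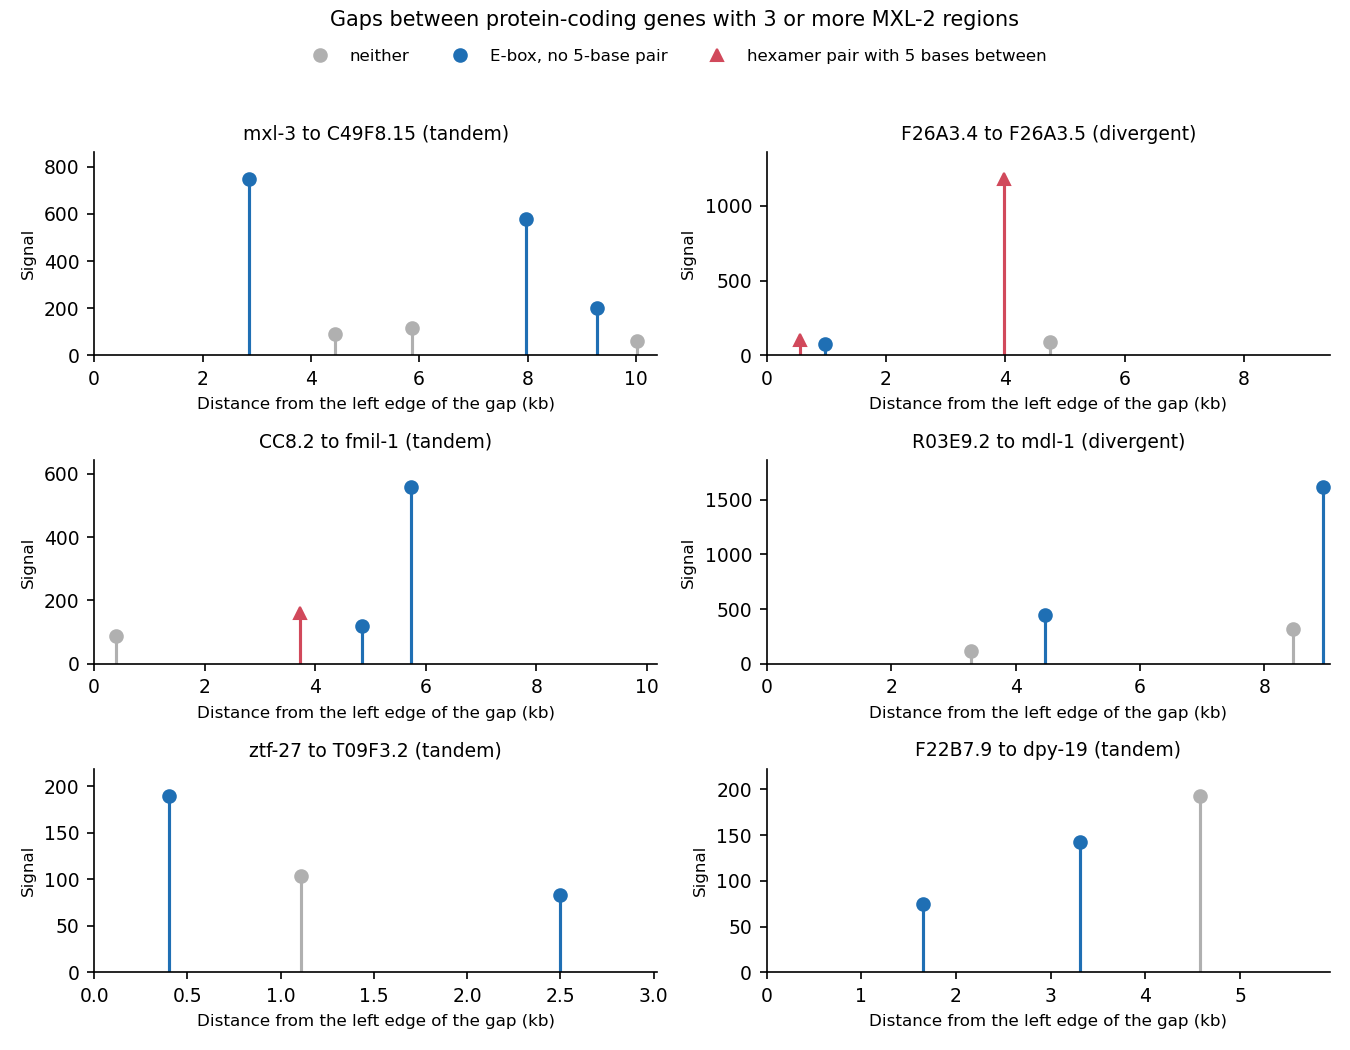
Signal of each region along the 6 gaps that hold 3 or more regions, by the distance of the summit from the gap's left edge in kb, with the presence of an E-box or of a hexamer pair with 5 bases between marked by colour. The signal axes differ between panels, from a maximum of 190 in the gap at T09F3.2 to 1615 in the gap at mdl-1.

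By gene family, the nearest 5' ends were spread thinly. A proximal region had 193 of 19973 protein-coding genes as nearest gene (0.966%) and a distal one had 176 (0.881%). Of the 5 network genes, mdl-1 was nearest to proximal regions, and mdl-1 and mxl-3 were nearest to distal ones. Cytosolic ribosomal protein genes had 7 of 81 with a proximal region, namely rpl-3, rpl-15 (signal 221), rpl-35 (157, replicates 61.98 and 101.2), rpl-12 (150.4, replicates 81.2 and 65.5), rpl-7A (127, replicates 69.9 and 54.8), rps-23 (86.2) and rps-28 (68.0). None of these had CACGTG, 4 of the 7 were at divergent promoters, and 1, at rpl-12, had ACGCAG. Regions near this family had been seen in these data before the list was chosen, so its count is not independent evidence.

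Autophagy genes had 3 of 15 with a proximal region and 0 with a distal one. These were atg-9, a membrane protein of autophagosome formation (signal 86.5, replicates 37.9 and 50.4, with CACGTG), and the LC3 family genes lgg-1 (78.6) and lgg-2 (69.9), which were in neither replicate's list. Trehalose genes had regions near tps-2, a trehalose phosphate synthase gene, at 2338 bp (90.8, with CACGTG) and 753 bp (54.3), and 692 bp from gob-1, a trehalose phosphate phosphatase gene (80.6). The region at 753 bp was in neither replicate's list. Among sugar transporters, the SWEET gene swt-3 had regions 1489 bp (122, replicates 62.4 and 53.8, with CACGTG) and 95 bp upstream (94.4), and swt-1 one at 3263 bp (89.3, with CACGTG). Lipid genes had 3 of 38 with distal regions, at acs-11 (116, with CACGTG), fat-1 (70.3) and acs-4 (60.7), and none with a proximal one. The regions at fat-1 and acs-4 were in neither replicate's list and lay below the whole list's median signal of 82.1.

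Nuclear hormone receptor genes had 3 of 269 with proximal and 7 with distal regions, the strongest being those at nhr-105 (262, replicates 136 and 117), nhr-35 (161, replicates 89.2 and 73.4) and nhr-88 (137, replicates 67.8 and 79.97). Of 25 hlh genes, hlh-11 (100.8, with CACGTG) and hlh-29 (79.1) had one each, and of 22 heat shock genes hsp-3, which encodes a chaperone of the endoplasmic reticulum, at 24 bp (97.6, replicates 50.7 and 43.5) and hsp-1 (69.9). Among large families, proximal regions lay at 3 of 322 F-box, 2 of 140 neuropeptide and 1 of 67 UDP-glucuronosyltransferase genes. They lay at 0 of 240 C-type lectin and 0 of 156 collagen genes. The neuropeptide (1.43%) and UDP-glucuronosyltransferase (1.49%) shares were above the 0.966% of all genes and the F-box share (0.932%) below it. Homeobox genes named ceh (63), cytochrome P450 genes (74) and Hedgehog-related and patched genes (84) had 0 of either kind. At the share of all genes, lists of this size are too small for a 0 to be read as low. The families come from 17 lists of genes, described by counts without a test.

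Chromosome X held 93 of the 394 regions (23.6%) and 20.8% of the eligible intergenic sequence. Its share was 29.4% of distal and 17.8% of proximal regions (58 and 35 of 197, odds ratio 1.93, exact adjusted p = 0.0244), while X holds 22.6% of the distal and 17.3% of the proximal sequence. This comparison, chosen after seeing the data, did not pass in the replicates' own lists (27.7% against 15.8% in replicate 2 and 30.2% against 16.3% in replicate 1, exact adjusted p = 0.0995 and 0.0632). The call was also lost in the 50% of higher signal, with 1 region per gap and with the whole region outside coding genes (exact adjusted p = 0.127, 0.0847 and 0.163), so in 5 of 10 alternatives. The distal group includes all 39 regions of convergent gaps, 16 of them on X, and their part in the difference was not tested. At promoters, 32 of 147 single but 3 of 50 divergent regions were on X (21.8% against 6%, odds ratio 4.36, exact adjusted p = 0.0244), which is close to the X share of the underlying sequence, 18.5% and 6.45%. That comparison passed in the list of replicate 2 (exact adjusted p = 0.0219) and not in that of replicate 1 (exact adjusted p = 0.0632), with 0 of 29 and 0 of 25 divergent regions on X. It was also lost in the conservative list, at 500 bp, with the whole region outside coding genes and with neighbours at any distance (exact adjusted p = 0.111, 0.119, 0.144 and 0.255). By density X had 12.2 regions per Mb, chromosome I had 14.3 and chromosome V, at 7.22, the fewest. CACGTG was found in 16.1% of the regions on X and 30.5% of those on V.

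Of the 394 regions, 133 (33.8%) were in both replicates' thresholded lists, 105 in 1 and 156 (39.6%) in neither. The median signal of these classes was 155, 86.8 and 69.3. A weak region falls under a replicate's threshold more readily by construction. In the same 4 classes by signal, 94.9%, 37.4%, 2.04% and 0% were in both lists. A candidate in each replicate's ranked list was found for 385 regions, whose signals had a Spearman rho of 0.598 across regions. The signal is scaled within each list, so replicate values are not compared in size. The strongest regions in neither list, named after their values were seen, lay near bcat-1, a branched-chain aminotransferase gene (signal 113, replicates 43.2 and 69.3), and srv-14, a chemoreceptor gene (107, replicates 45.3 and 63.6). The weakest class thus has no region in both lists.

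**Figure D5:**
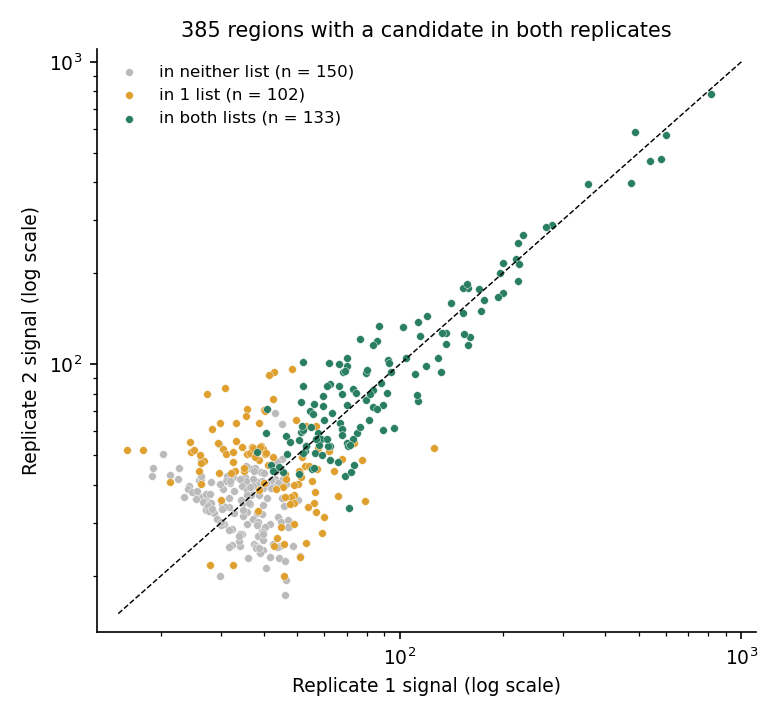
Signal of the strongest overlapping candidate in replicate 1 against replicate 2, on log scales, for the 385 regions with a candidate in both, coloured by how many thresholded lists hold the region. The dashed line marks equal values, although each list has its own scale. The 133 regions in both lists reach the highest signals, and the 150 in neither list lie at low signal on both axes.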

How the data were processed

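Peak lists in ce11 coordinates were deposited for the whole experiment and for each of 2 replicates. Each deposited signal value is a peak's enrichment as the authors' caller gave it, scaled within its own list. Ranked candidates carry the authors' −log10 IDR (irreproducible discovery rate), per the notes deposited with the files. The largest IDR of a listed line was 0.01. At or under that limit were 1104 ranked candidates, against 983 listed lines, and the reason for the difference is unknown. The aligner and peak caller are not given in the sources used, and read depth is unknown.

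Overlapping lines of the whole-experiment list were joined (983 lines to 968 regions, strongest summit kept) and placed on the Ensembl 115 annotation. Words were counted on both strands within 50 bp of summits and, as background, in windows centred 500 bp to either side. Those background windows were not limited to sequence outside coding genes. A region is said to have or lack a word by the 50 bp around its summit. A region was in a replicate's list if it overlapped it by 1 base. Counts of regions were compared by two-sided Fisher's exact tests with Benjamini-Hochberg adjustment at 0.05, within 9 planned and 12 later comparisons, 10 flank classes, 21 spacings and 2080 hexamers. Intervals are exact (Clopper-Pearson, 95%). The hexamer scan alone was tested on simulated data, namely flanking windows with planted hexamers. Python 3.11.15, scipy 1.17.1, numpy 2.4.6 and matplotlib 3.10.9 were used.

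Named genes are the nearest 5' ends of the 10 strongest proximal, 10 strongest distal and 5 strongest divergent regions, of gaps with 3 or more regions, of 3 regions on either side of 1000 bp, and of up to 3 in each gene list. Others were named after their values were seen. The members and lists were chosen with earlier results of these data known. Alternatives were the conservative list, each replicate's own list, the 50% of regions of higher signal, every deposited line, other distances, windows and overlaps, 1 region per gap, and stricter rules on genes.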

Additional observations from a re-analysis of the deposited data

Results flagged for a closer look

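Each replicate's own thresholded list held a few intergenic regions, away from noncoding RNA genes, that overlapped no region of the whole-experiment list. They entered none of the comparisons above that used that list, only the values taken from the replicate's own list. There were 6 of 188 in replicate 1 (3.19%, exact 95% interval 1.18 to 6.82), with signals up to 60.3. There were 9 of 195 in replicate 2 (4.62%, 2.13 to 8.58), with signals up to 59.6. None of these had CACGTG within 50 bp of the summit.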

How the results depend on the processing

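No paired analysis was possible because there is 1 group. Values are percentage points, first group minus second, unless named otherwise, and the cause of the changes was not tested. Leaving out a replicate means using the other replicate's own list. The proximal share was 36.8% at 500 bp, 65.2% at 2000 bp, 52.1% with 1 region per gap and 43.0% with the whole region outside coding genes. The X share was 21.3% in the conservative list, 25.9% with the whole region outside coding genes and 21.5% to 23.4% with a replicate left out. With a replicate left out, the difference in signal above the median was −5.05 to 3.53 for proximal against distal and −7.28 to −5.19 for divergent against single. The share in both lists, divergent against single, turned to −2.47 with the whole region outside coding genes.

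For CACGTG, divergent against single was −25.9 to −16.04 with a replicate left out. Intergenic against intronic was −21.6 in the 50% of higher signal, −11.1 at 100 bp and −23.2 to −13.6 with a replicate left out. Convergent against other gaps was −22.2 in the 50% of higher signal and −28.2 to −27.3 with a replicate left out, and the call was lost in these. Above against not above the median was 9.345 to 11.3 with a replicate left out. The share in both lists, with against without CACGTG, was 9.38 in the 50% of higher signal. ACACGTGT sites against other flanks were −1.34 in the conservative list, −1.03 in the 50% of higher signal, −0.968 at 25 bp, −1.49 at 100 bp and −1.15 to −0.666 with a replicate left out.

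The X share of distal against proximal regions was 13.4 in the 50% of higher signal, 9.46 with 1 region per gap, 8.49 with the whole region outside coding genes and 11.8 to 13.9 with a replicate left out, and the call was lost in all of these. Single against divergent on X was 11.4 in the conservative list, 13.5 at 500 bp, 17.4 with the whole region outside coding genes, 7.83 with neighbours at any distance and 22.2 to 22.4 with a replicate left out, and the call was lost in all of these but replicate 2's own list. Hexamers that differed between summits and flanks numbered 524, against 249 in the 50% of higher signal and 196 to 220 with a replicate left out. Between proximal and distal summits there was 1, against 0 in the conservative list, 0 in the 50% of higher signal, 11 at 500 bp, 2 at 2000 bp, 4 with 1 region per gap and 0 to 0 with a replicate left out. The 5-base pair kept its call in the 10 alternatives run, between 29.4 and 44.5 points.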

Other observations

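Some regions lay far from any protein-coding 5' end. The farthest, 15335 bp downstream of the 5' end of cab-1, had a signal of 90.6, with 39.9 in replicate 1 and 52.3 in replicate 2. Others lay 11475 bp from K01F9.2 (signal 68.7), 9986 bp from Y54F10AM.8 (109), 9789 bp from pdfr-1, a neuropeptide receptor gene (87.6), and 9764 bp from srd-23 (89.0). These genes were chosen for distance after their values were seen.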
